A study of Mus musculus with 8 samples.

Results

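Clustered H3K9me3 peaks of KAP1 knockout (KO) mouse embryonic fibroblasts (MEF), at places where wild-type (WT) MEF had no H3K9me3 peak, are described here. The members were chosen by peak numbers in both H3K9me3 lists. On chromosomes 1 to 19, divided into fixed windows of 1 Mb, a window entered where the midpoints of KO peaks exceeded those of WT peaks by 8 or more, and its KO peaks with no base in a WT peak became members. The rule found 947 members, which were 29.8% of the 3176 KO H3K9me3 peaks, in 34 windows. All 5 lists of the series together held 38359 peaks.

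MEF are connective tissue cells taken from embryos. Chromatin immunoprecipitation with sequencing (ChIP-seq) was done for KAP1 in WT cells and for the histone marks H3K9me3 and H4K20me3 in both genotypes. Each of these 5 groups had 1 library, so no difference below has a replicate check or a test. The labels give no age, passage, clone or allele for the KO cells, and KAP1 was profiled in WT cells alone, so the knockout was not checked here. The 3 input libraries were not analysed here.

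KAP1 (TRIM28) is a repressor protein brought to DNA by KRAB zinc finger proteins, where it recruits the methyltransferase SETDB1, an enzyme that writes H3K9me3. H3K9me3 is bound by HP1 proteins and marks silent chromatin, often over repeats, zinc finger gene clusters and stretches of few active genes. H4K20me3 is written by SUV420H enzymes, which HP1 can bring to H3K9me3, and both marks are commonly found together in heterochromatin.

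Most of the genome had far fewer H3K9me3 peaks in KO. Chromosomes 1 to 19 held 14185 WT and 2862 KO peaks, and 2.42% of the WT peaks had a KO peak on them. The members lay in windows that went the other way. These 34 windows were 1.51% of the 2252 windows with an H3K9me3 peak of either genotype on these chromosomes. They held 213 WT and 981 KO peaks, and 34 of these KO peaks lay on a WT peak. The excess of KO over WT ranged from 8 to 104 peaks per window, with a median of 16.5. Members were 37.3% of the 2538 new KO peaks on chromosomes 1 to 19, so most new peaks lay outside these windows. Of all KO peaks there, 88.7% were new. These counts follow from the rule and were not tested. The last window to enter, at 108 to 109 Mb of chromosome 12, had 0 WT and 8 KO peaks with scores from 50.1 to 73.3 and a median of 57.5. The first window left out, at 89 to 90 Mb of chromosome 11, had 2 WT and 9 KO peaks, and its 9 new peaks had scores from 50.01 to 132 with a median of 54.0. The score is the peak caller's own value for each peak, and 50 is the floor of every list.

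**Figure D1:**
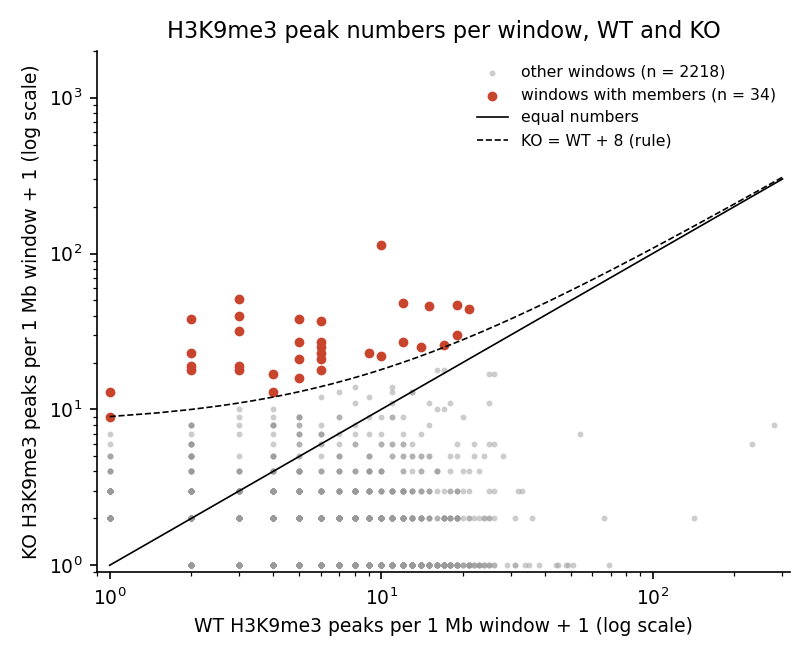
WT and KO H3K9me3 peak numbers in each of 2252 windows of 1 Mb, with 1 added to both numbers on log scales. The 34 red windows lie on or above the dashed line of the rule, and the highest red point has 9 WT and 113 KO peaks.

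Adjacent windows were joined into 25 regions on 12 chromosomes, and the 12 with most members held 735 of the 947 (3 regions tied at 22 members, of which the 2 on chromosomes 1 and 17 are counted in). Chromosome 15 carried 222 members, chromosome 10 carried 196 and chromosome 2 carried 149, which were 61.0%, 70.0% and 60.3% of all KO H3K9me3 peaks on those chromosomes. Chromosomes 4, 6, 9, 13, 16, 18 and 19 had no such window. From the first to the last member, regions spanned 48.2 to 2383 kb, with a median of 684 kb. Positions are those of build mm9. Genes and sequences in the regions were not analysed here.

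The region with most members lay on chromosome 15, with 189 members between 86436497 and 88304172. Its 3 windows, from 86 to 89 Mb, held 2, 9 and 4 WT peaks and 50, 113 and 26 KO peaks. From 86.4 to 88.4 Mb, each of 20 bins of 100 kb held a KO peak, with a median of 9.5 and at most 16 per bin, and the 9 WT peaks of that stretch had no KO peak on them. In the 2 Mb before this stretch there were 26 WT peaks and 1 KO peak, and in the 2 Mb after it 15 WT peaks and 1 KO peak. The limits of this stretch are the bins of the first and the last member, so a block filled with KO peaks follows in part from that choice. Its first 2 bins held 6 and 10 KO peaks, and its last 2 held 7 and 1. The stretches on both sides had more WT than KO peaks, as most of the genome did. Members here were short, with a median length of 454 bp, and the median gap from one to the next was 5611 bp. The longest, from 88077511 to 88078892, measured 1382 bp and was also the highest-scoring at 227. No H4K20me3 peak of either genotype lay between the first and the last member.

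**Figure D2:**
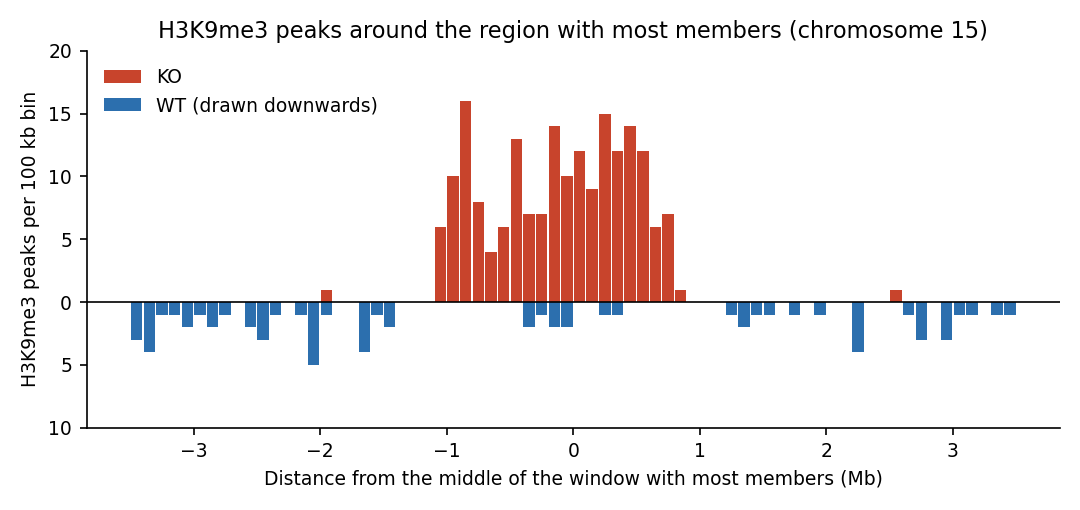
H3K9me3 peaks per bin of 100 kb on chromosome 15, by distance from the middle of the window with most members, with KO drawn upwards and WT downwards. KO peaks fill a block of about 2 Mb with up to 16 per bin, and WT peaks lie mainly on both sides of it.

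Chromosome 10 held 3 regions near its distal end, with 73 members at 117 to 119 Mb, 45 at 121 to 122 Mb and 78 at 123 to 126 Mb. WT numbers in the 6 windows, in order along the chromosome, were 5, 1, 11, 5, 4 and 2, and KO numbers were 36, 37, 47, 26, 37 and 17. Windows between them had more WT than KO peaks, which is the general state given above. At 119 to 120 Mb there were 18 WT peaks and no KO peak, at 120 to 121 Mb 27 and 4, and at 122 to 123 Mb 10 and 4. The windows with members were therefore not continuous over these 9 Mb. Members of chromosome 10 were longer than those elsewhere, with a median of 1184 bp (quartiles 888 and 1582 bp, n = 196) against 461 bp (quartiles 382 and 609 bp, n = 751). The other 61 new KO peaks of chromosome 10 had a median of 490 bp (quartiles 365 and 1049 bp). Some long new peaks of this chromosome thus lay outside the windows with members. The highest-scoring member of all, from 117777710 to 117781793, measured 4084 bp and scored 394, the third highest among new KO peaks on chromosomes 1 to 19. A second strong member, from 117688275 to 117692998, measured 4724 bp and scored 352.

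The other regions with many members resembled the block on chromosome 15 in member length. On chromosome 2, 85 members lay from 178005520 to 179476735 with a median length of 423 bp, 41 from 169004867 to 169771659 with 436 bp, and 23 from 174422947 to 174878756 with 382 bp. On chromosome 11, 73 members lay from 113704065 to 114417837 with a median length of 461 bp, where the windows held 32 WT peaks but only 4 of these within the members' span. On chromosome 17, 52 members lay from 48665698 to 49341229 with a median length of 438 bp. On chromosome 5, 32 members were spread thinly from 94038960 to 95792485, with a median gap of 19850 bp. The highest scores in these 6 regions ran from 123 on chromosome 5 to 195 on chromosome 17, below the 312 to 394 of the 3 regions on chromosome 10.

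The clusters given next spanned less than the regions above, and those on chromosomes 3, 7 and 17 were dense. On chromosome 3, 20 members between 92014931 and 92094546 covered 48.9% of 79.6 kb, with a median length of 1409 bp and a median score of 133, the highest of any region for both. On chromosome 17, 22 members from 31005592 to 31139776 covered 12.5% of their span, and one of them (31038037 to 31040314) scored 356. On chromosome 7, 18 members covered 21.0% of the 81.0 kb from 46507490 to 46588475, a span without a WT H3K9me3 peak. Another 12 members of that chromosome covered 19.6% of the 48.2 kb from 67002201 to 67050436, but lay among H3K9me3 that WT cells had too. All 16 WT peaks of that window were inside the members' span and all 16 had a KO peak on them, and the window held 3 KAP1 peaks. On chromosome 5, 22 members lay from 26326594 to 26658540, among them the longest member of all at 6691 bp. A region on chromosome 1 from 85000676 to 85295217 had 22 members, as did those just named on chromosomes 5 and 17, with a median length of 762 bp and a highest score of 160. The regions on chromosomes 5 and 1 spanned 331.9 and 294.5 kb. They held 6.63 and 7.47 members per 100 kb, fewer than the 10.1 of the block on chromosome 15. The clusters on chromosomes 3, 5 and 7 were picked for description after their values were seen.

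The remaining 9 regions, on chromosomes 5, 8, 11, 12, 14 and 15, each spanned more than 500 kb and held 8 to 21 members. Their 140 members were sparse, at 0.890 to 3.39 per 100 kb, and short, with median lengths by region from 355 to 572 bp. Their highest score was 210.

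**Figure D3:**
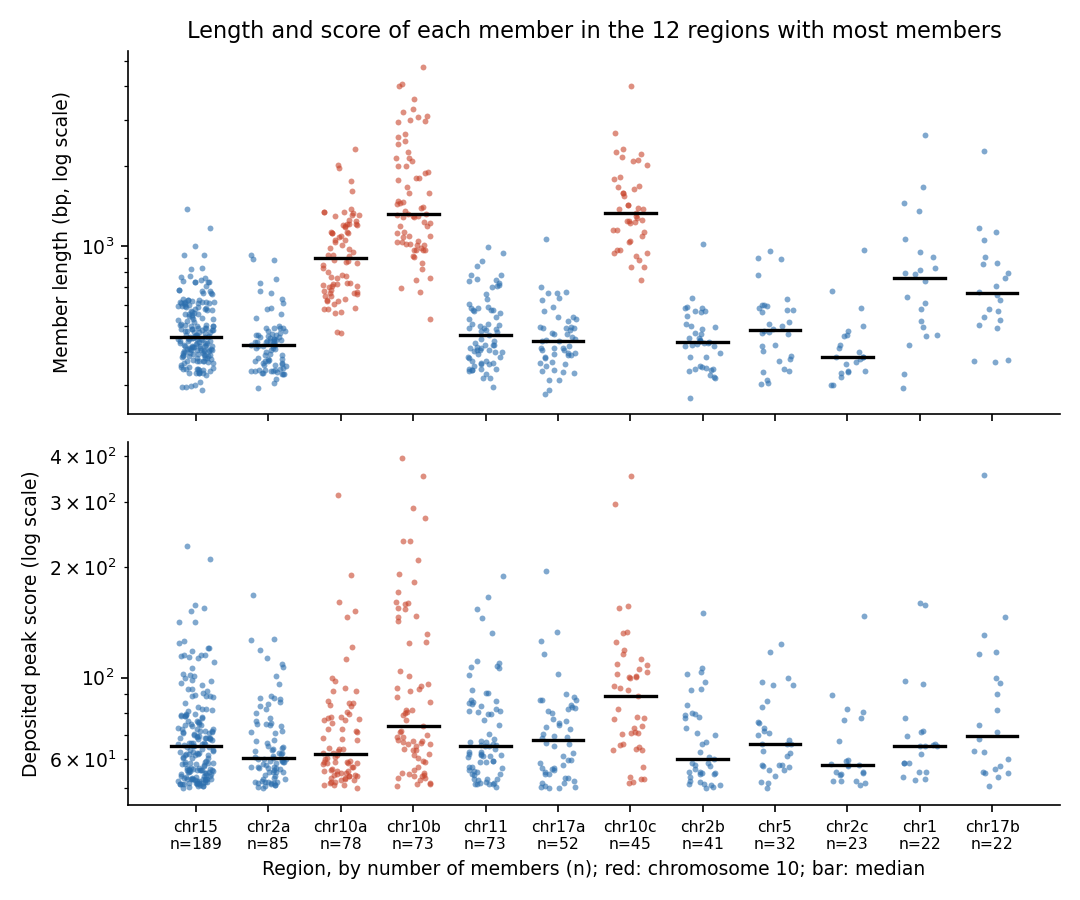
Length in bp (above) and deposited score (below) of each member, on log scales, in the 12 regions with most members, with bars at the medians. Letters tell regions of 1 chromosome apart by number of members, and the 3 regions of chromosome 10 (red) have median lengths of 902, 1321 and 1336 bp, above the other 9.

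Spacing within windows was close but uneven. The median gap between neighbouring members was 7786 bp (95% interval 7026 to 8884 bp, from order statistics, n = 913 gaps), with quartiles of 2234 and 18350 bp. For other new KO peaks of these chromosomes it was 57450 bp (n = 836), a difference that the rule's count per window largely fixes. Of the 913 gaps, 137 were of up to 1 kb, 356 of up to 5 kb and 694 of up to 20 kb. When members with gaps of up to 20 kb were chained, 396 of the 947 fell into 23 chains of 10 or more, and these covered from 5.32% to 48.9% of the chain's length. The longest chain by number, on chromosome 11 from 113817976 to 113992621, held 34 members.

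**Figure D4:**
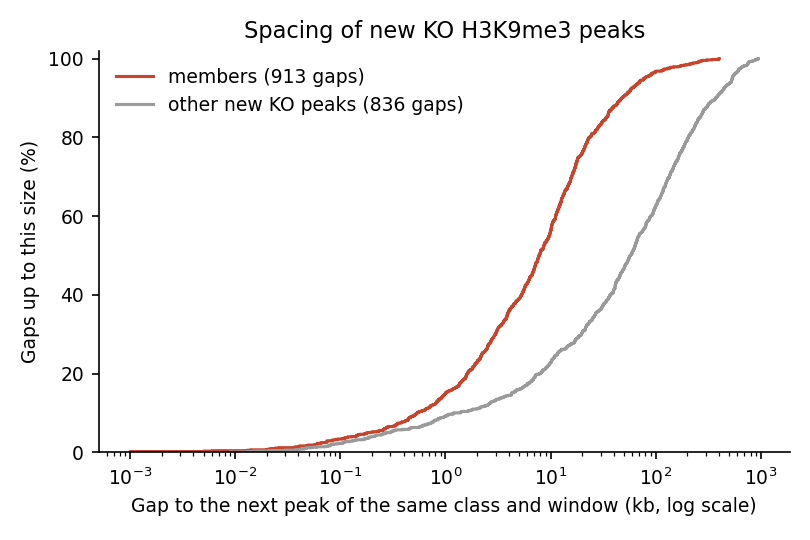
Share of gaps up to a given size between neighbouring new KO H3K9me3 peaks of the same window, on a log scale, for members (913 gaps) and other new KO peaks (836 gaps). The members' curve lies to the left, with medians of 7786 bp for members and 57450 bp for the others.

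Members were modest peaks. Their median score was 65.4 (quartiles 55.8 and 84.3), against 58.1 for the 1591 other new KO peaks of these chromosomes and 99.8 for the 324 KO peaks on a WT peak. Median lengths were 513, 405 and 699 bp in the same order. A score of 100 was reached by 152 members (16.1%), 135 other new peaks (8.49%) and 162 of the 324 KO peaks on a WT peak. Longer members had higher scores, with a Spearman rho of 0.61 over 947 peaks of 1 library, close to the 0.64 over other new peaks. These values come from the library that chose the members and are a description alone. A peak caller can report 1 wide domain as several short peaks, so chains of separate peaks and wide domains cannot be told apart from these lists.

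H4K20me3, which the rule did not use, was nearly absent from the members. A KO H4K20me3 peak overlapped 3 of 947 members (0.317%, exact 95% interval 0.0654 to 0.923%), against 2.80% of all KO H3K9me3 peaks on chromosomes 1 to 19. Other new KO peaks had 1.19% (interval 0.720 to 1.86%), so the intervals of members and other new peaks overlapped, and KO peaks on a WT peak had 17.9% (interval 13.9 to 22.5%), well above both. For WT H4K20me3 peaks the share was 2 of 947 (0.211%, interval 0.0256 to 0.761%), with 1.01% of other new KO peaks (interval 0.576 to 1.63%) and 3.07% of all KO H3K9me3 peaks, so here too the intervals of members and other new peaks overlapped. The median distance from a member to the nearest KO H4K20me3 peak was 393 kb, and from other new peaks 343 kb. In 15 of the 25 regions no H4K20me3 peak of either genotype lay between the first and the last member. Stretches of like length elsewhere were not counted, so whether 15 is many cannot be told. Intervals cover counting error over peaks alone, and neighbouring peaks are not independent.

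The few exceptions were weak or moderate peaks. On chromosome 10 the member from 121015902 to 121018230 scored 116 and lay within a KO H4K20me3 peak of score 158, without a WT H4K20me3 peak. The member from 124260672 to 124261346 scored 67.6, with a KO H4K20me3 peak of 52.5. A pair of members on chromosome 10 (123575550 to 123576416 and 123576507 to 123577513) touched the same WT H4K20me3 peak, of score 161, which had no counterpart on them in KO. On chromosome 1 the member from 85227848 to 85228307 scored 55.3, with a KO H4K20me3 peak of 62.2.

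KAP1 peaks of WT cells were rare at the members, as at new KO peaks elsewhere. A single member, on chromosome 7 from 67040366 to 67042321, overlapped a KAP1 peak, which scored 50.9, near the floor of its list. This was 0.106% of members (interval 0.00267 to 0.587%), against 0.314% of other new KO peaks (interval 0.102 to 0.732%) and 0.489% of all KO H3K9me3 peaks on these chromosomes. For KO peaks on a WT peak the share was 8 of 324 (2.47%, interval 1.07 to 4.81%). The KAP1 list held only 372 peaks, so low shares are likely for any class of peaks.

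H4K20me3 peaks elsewhere in the same windows were kept about as often as in the rest of the genome. Of 104 WT H4K20me3 peaks in the windows, 71 had a KO peak (68.3%, interval 58.4 to 77.1%), and over chromosomes 1 to 19 the share was 65.6%. The windows held 104 WT and 101 KO H4K20me3 peaks, a ratio of 0.971 (interval 0.731 to 1.29), against 0.779 in all other windows, a value inside that interval. In windows next to them the ratio was 0.93, and in windows with members off chromosome 10 it was 0.892. New H4K20me3 peaks made up a larger share, with 35 of 101 KO peaks off any WT peak (34.7%, interval 25.5 to 44.8%) against 16.0% over chromosomes 1 to 19. On chromosome 10 alone the number was 18 of 35 (51.4%, interval 34.0 to 68.6%), and off it 17 of 66 (25.8%, interval 15.8 to 38.0%). The interval off chromosome 10 just holds 16.0%, so the larger share is less clear there.

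Around the members of chromosome 10, H4K20me3 scores were higher in KO than in WT. At 22 shared H4K20me3 peaks in its 6 windows, the median log2 ratio of KO to WT score was 1.33 (interval 0.82 to 2.39), and 15 of the 22 (68.2%) had a KO score at least 2 times the WT score, against 12.1% of 7279 shared peaks on chromosomes 1 to 19. The KO score was the higher in 20 of the 22, where 57.3% of all shared peaks had a higher KO score. The windows at 123 to 124 and 124 to 125 Mb, with 24 and 37 members, had no shared peak. That at 125 to 126 Mb had 2. In windows with members on other chromosomes the median was 0.10 (interval -0.02 to 0.41, 49 shared peaks), near the 0.12 of the other windows of chromosomes 1 to 19. The median over all windows with members, 0.42, thus rested on chromosome 10. Windows without members between 117 and 126 Mb of chromosome 10 had 0.92 (16 peaks), so the higher H4K20me3 scores were not limited to windows that gained H3K9me3 peaks.

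The limits of this stretch were visible in the H4K20me3 scores on both sides. The median log2 ratio was -0.17 below 114 Mb (314 shared peaks), 0.81 at 114 to 117 Mb (10 peaks), 1.08 at 126 to 128 Mb (42 peaks) and 0.07 at 128 to 130 Mb (7 peaks). At 126 to 128 Mb the number of H4K20me3 peaks was 44 in WT and 62 in KO, while these windows held 12 WT and 5 KO, and 8 WT and 1 KO, H3K9me3 peaks. The stretch from 114 to 128 Mb was delimited after its values were seen, by going outwards from the members' windows to the last window before the median ratio came to 0.5 or less. The medians at 114 to 117 and 126 to 128 Mb are thus above 0.5 by choice, and 3 windows of the stretch had no shared peak and so no ratio. The shared H4K20me3 peaks in the members' windows were also wider in KO, with a median length of 972 bp in WT and 2034 bp in KO. Median scores there were 240 and 614. At 7208 shared peaks outside windows with members, median lengths were 841 and 865 bp and median scores 227 and 250. Higher H4K20me3 scores and longer members thus lay in the same stretch, and the part of the one in the other was not tested. Long members also lay off chromosome 10. Median lengths were 1409 bp at 92 to 93 Mb of chromosome 3, 971.5 bp at 26 to 27 Mb of chromosome 5 and 915 bp at 46 to 47 Mb of chromosome 7. The windows of these regions held no shared H4K20me3 peak. Genotype and culture cannot be told apart with 1 library each. Copy number of this stretch in each culture was not analysed here, and a difference in copy number and a difference in either mark cannot be told apart from peak scores and lengths.

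**Figure D5:**
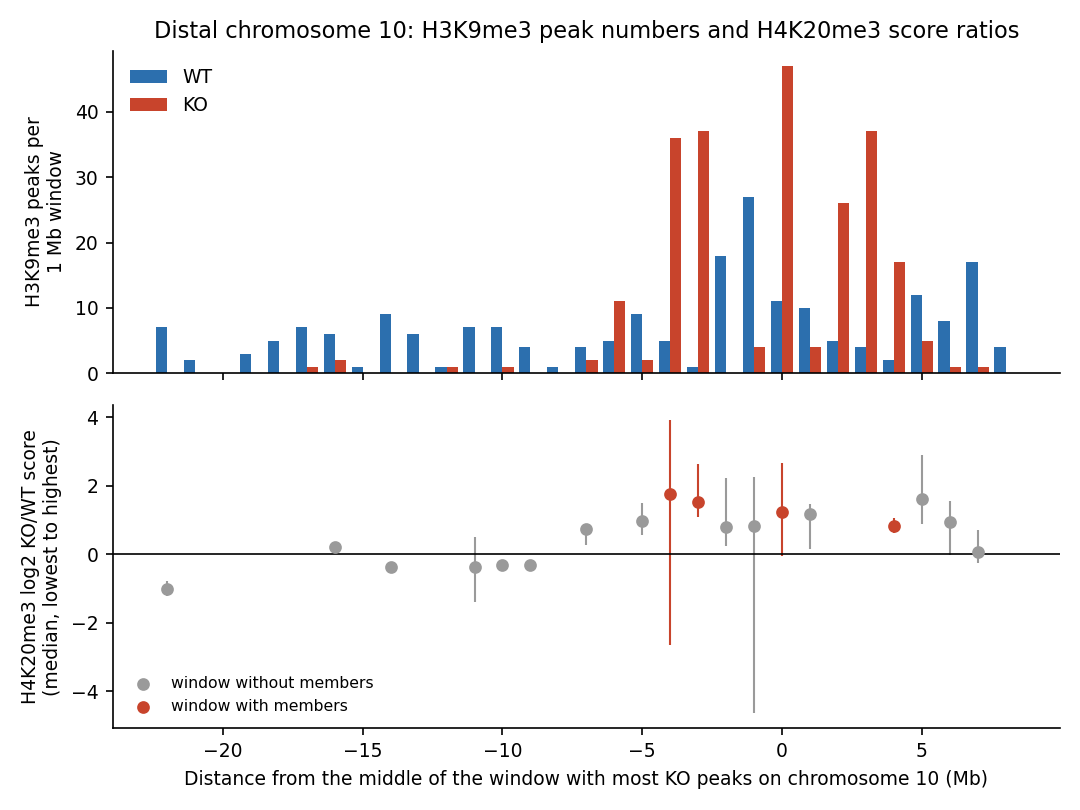
Distal chromosome 10 by distance from the middle of the window with most KO peaks, with H3K9me3 peak numbers per 1 Mb window (above) and the log2 KO to WT score ratio of shared H4K20me3 peaks (below; dots are medians, lines run from the lowest to the highest peak). KO H3K9me3 peaks pile up in 6 windows with up to 47 each, and H4K20me3 medians are above 0 in every window with a shared peak from 7 Mb before to 7 Mb after the centre.

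H4K20me3 peaks in the windows of the region on chromosome 15 did not show this, but none of them lay within the members' span. These windows held 13 WT and 12 KO H4K20me3 peaks, 10 of each at 88 to 89 Mb. The 11 shared peaks had a median log2 ratio of 0.42, with 0.31 in windows of chromosome 15 without members. On chromosome 11 the 7 shared peaks at 113 to 115 Mb had 0.26, with 0.30 for windows without members, and on chromosome 2 the 9 at 178 to 180 Mb had 0.41, with 0.14. On chromosome 17 the 4 at 48 to 50 Mb had -0.21, with 0.19. Outside chromosome 10, the region with at least 4 shared peaks that stood farthest from its chromosome was at 174 to 175 Mb of chromosome 2, where the ratio was lower, at -0.55 (6 peaks) with 0.14. The members' spans of these regions on chromosomes 11 and 17 also held no H4K20me3 peak. On chromosome 2 the span at 178 to 180 Mb held 1 WT and no KO peak, and that at 174 to 175 Mb no WT and 1 KO peak. These ratios therefore cannot show whether H4K20me3 scores changed at the members themselves.

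Windows next to the regions had more WT than KO H3K9me3 peaks, as the genome did, but by a smaller factor. The 49 neighbouring windows held 374 WT and 147 KO H3K9me3 peaks, with more WT peaks in 32, more KO peaks in 13 and equal numbers in 4. The ratio of KO to WT peak numbers was 0.393 there, against 0.128 in windows that neither held members nor lay next to them. Both ratios come from the lists that the rule used. A cluster that crosses a fixed window edge can leave KO peaks in the next window, so nothing is read from this difference. WT peaks inside the windows with members were kept in 39 of 213 cases (18.3%, interval 13.4 to 24.2%), where 2.42% of all WT peaks on chromosomes 1 to 19 were kept. The window at 67 to 68 Mb of chromosome 7 gave 16 of the 39. This share uses the contrast of the rule, and windows with many KO peaks give more room for an overlap, so nothing is read from it.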

How the data were processed

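Peak lists of 5 ChIP-seq libraries were used, 1 per group. The submitters' processing notes name build mm9 with CASAVA 1.82, Bowtie2 2.2.1 and MACS 1.4 as tools. Call parameters and the controls of the histone calls are not stated in them. The score of each peak was deposited by the authors and was compared within a list, except for log2 ratios of H4K20me3 scores, which are read only against other places. Depth is unknown. A WT H4K20me3 peak was paired with its highest-scoring overlapping KO peak.

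Positions count from 1, and an overlap means at least 1 bp. Python 3.11.15 with numpy 2.4.6 and pandas 2.3.3 gave the overlaps, which were checked against bedtools 2.31.1. Shares have exact Clopper-Pearson 95% intervals (scipy 1.17.1), and medians 95% intervals from order statistics. The code of the rule was run on simulated lists, and all windows and members were recovered in 5 of 5 runs. No simulated window lay near the threshold, so this checks the code and not the rule. No test between genotypes was possible, because each group has 1 library.

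The members, the alternatives and the rule for naming were chosen with earlier results of these data known. Named are up to 12 regions with most members, their highest-scoring and longest members, members on another mark, and windows at the threshold. No genome of build mm9 was used here, so no sequence or gene is given.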

Additional observations from a re-analysis of the deposited data

How the results depend on the processing

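Of 94 values recomputed under 10 alternatives, 75 stayed within the interval of the reported value or within 1.5 times the reported count, and 19 moved. None was labelled reversed, but that label left out ratios of peak numbers that crossed 1. For H4K20me3 in the windows, KO had 0.971 times as many peaks as WT (interval 0.731 to 1.29). This rose to 1.03 with an excess of 12 or more, 1.21 without scores under 100, 1.14 with trimmed lists and 1.03 with merged peaks. Elsewhere it lay from 0.892 to 0.978, so its side of 1 is not settled. With peaks scoring under 100 left out of all lists, 8 windows and 104 members were left, with a median score of 154, a median length of 1706 bp and a median gap of 6445 bp. Their share on KO H4K20me3 was 1.92%, on WT H4K20me3 0% and on KAP1 0%, and the H4K20me3 score ratio was 1.23 (log2, 11 peaks). Of these 8 windows, those at 15 to 16 Mb of chromosome 5 and 57 to 58 Mb of chromosome 8 were not among the 34. Lists of a mark trimmed to the same number of top-scoring peaks gave 57 windows, a share of 0.828% on KO H4K20me3 and an H4K20me3 score ratio of 0.15 (log2), in place of 0.317% and 0.42. The share on KO H4K20me3, which rests on 3 members, was also 0.660% with an excess of 5 or more, 0.559% with merged peaks and 0.133% without chromosome 10, and the ratio was 0.27 with shifted windows. Merging peaks within 5 kb gave 537 members, a median length of 675 bp, a gap of 16020 bp and a KAP1 share of 0%. The KAP1 share, which rests on 1 member, was also 0% with an excess of 12 or more and with an overlap of at least 50%. In alternatives added after the data were seen, the median length was 461 bp without chromosome 10 and 566 bp without the 3 windows at 86 to 89 Mb of chromosome 15. Without chromosome 10 the share on WT H4K20me3 was 0% and the H4K20me3 score ratio 0.10 (log2), against 0.42 with it. Planned gene counts were not run for want of an mm9 annotation. No paired analysis was possible because each group has 1 library.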
